A study of Mus musculus with 3 samples.

Results

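The 10 genes described here, Trpm5, Avil, Gnb3, Gnat3, Plcb2, Il25, Dclk1, L1cam, Alox5 and Ltc4s, belong to taste transduction and to the effector programme of tuft cells. They were chosen by symbol, and all 10 were found among the 32293 features counted (8 of them transgenes). The data are single-cell RNA-seq counts of CD45- thymic stromal cells from untreated C57BL/6 mice aged 20 months. There was 1 library for each of 3 groups, Foxn1Lin female, Foxn1Lin male and wild type male, and values are given in that order throughout. Foxn1Lin mice carry a Foxn1-driven Cre and a tdTomato reporter at Rosa26 that Cre switches on, so cells that express Foxn1, the master transcription factor of thymic epithelium, and their descendants are labelled; wild type mice carry neither. Each library pooled between 10 and 15 thymi according to the protocol, so no spread between mice can be seen, and with 1 library per group a difference between groups has no replicate check.

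Tuft cells are rare epithelial chemosensors, best known from the gut and airways, that use the taste cascade. A taste receptor activates a G protein, phospholipase C releases calcium, and the channel TRPM5 opens; the cell then releases interleukin 25 and lipid mediators such as cysteinyl leukotrienes. In the thymic medulla, tuft-like cells are among the mimetic epithelial cells, which resemble cells of peripheral tissues.

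The 3 libraries held 8616, 3583 and 5478 called cell barcodes, with 53366016, 33386621 and 61258534 UMIs (unique molecules counted) and a median of 4675, 7431 and 7947 UMIs per barcode. Epithelial barcodes were those with at least 1 Epcam UMI and no Pecam1 or Pdgfra UMI. They numbered 594, 525 and 1078, with a median of 8568.5, 10284 and 14159 UMIs. Endothelial barcodes had 2 or more Pecam1 UMIs (2237, 898 and 994 barcodes), fibroblasts had 2 or more Pdgfra UMIs (1912, 885 and 1790 barcodes), and barcodes in both gates were left out of both. The libraries shared between 3 and 14 barcode sequences per pair, and 0 of these had 3 or more of the 10 genes. For the wild type library the labels disagree, since its title names CD45- cells and its cell type field PECAM1+ cells; its share of endothelial barcodes, 18.1% of called barcodes, was the lowest of the 3 (26.0% and 25.1% in the others). The shared protocol text speaks of female mice for all 3 libraries, against 2 of the titles.

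Levels are counts per 1e6 UMIs summed over the barcodes of a gate (CPM). The reads are counted at transcript 3′ ends and levels are not divided by length, so they are compared between gates and libraries but not between genes. In 5 of the 10 genes, Trpm5, Gnb3, Plcb2, Il25 and Alox5, the epithelial level was higher than in both other gates. Gnat3 was higher than in fibroblasts only, L1cam lay between endothelial cells and fibroblasts, Avil passed neither comparison, and Dclk1 and Ltc4s were highest in fibroblasts. The gates were compared on summed counts with edgeR's quasi-likelihood test, the library as block, and Benjamini-Hochberg adjustment over all genes tested. Against endothelial cells 5 members were higher and 1 was lower, where 17.3% of 21973 genes were higher and 18.8% lower. Against fibroblasts 7 members were higher and 2 were lower, where 23.3% of 21767 genes were higher and 23.0% lower. The median log2 fold change of the members was 1.43 and 3.19, beside 0.06 and 0.09 over all genes tested.

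**Figure D1:**
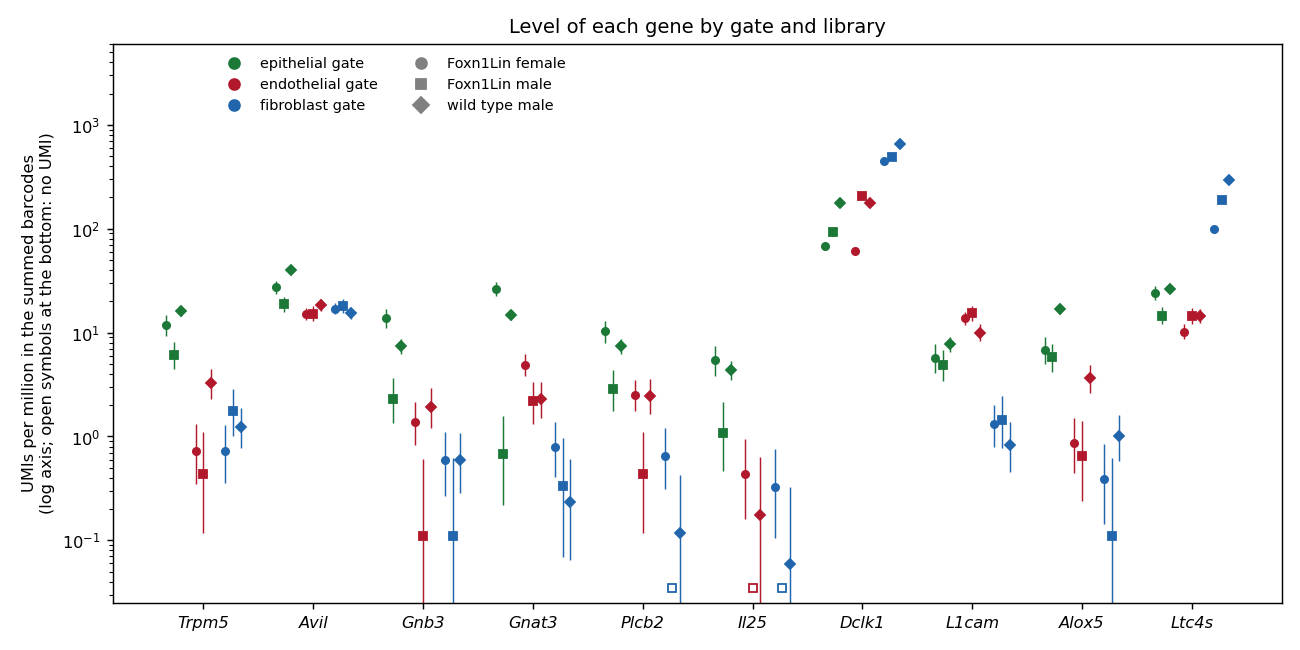
Level of each of the 10 genes (CPM, log axis) in the summed epithelial, endothelial and fibroblast barcodes, 1 symbol per library, with open symbols at the bottom where no UMI was counted. The epithelial symbols of Trpm5, Gnb3, Plcb2, Il25 and Alox5 lie above those of both other gates within every library, whereas those of Dclk1 and Ltc4s lie below the fibroblast symbols.

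The G protein of the cascade was represented by its alpha and beta subunits. Gnat3 (chr5:17962549-18019834, plus strand, GRCm38) encodes gustducin, the alpha subunit of taste cells. Its epithelial level was 26.5, 0.676 and 14.9 CPM, from 180, 5 and 300 UMIs in 8, 2 and 18 barcodes. The endothelial level was 4.92, 2.18 and 2.29 CPM and the fibroblast level 0.784, 0.333 and 0.236 CPM. The Foxn1Lin male library was therefore low in the epithelial gate and, unlike the others, lower there than in endothelial cells. The log2 fold change was 4.42 (SE 0.74) over fibroblasts, adjusted p = 0.00584, and 1.27 (SE 0.79) over endothelial cells, adjusted p = 0.253. Without the Foxn1Lin male library the latter was 2.16 with an adjusted p of 0.0030. Gnb3 (chr6:124834240-124840275, minus strand) encodes a beta subunit shared by taste cells and cone photoreceptors. It was at 13.8, 2.30 and 7.43 CPM in epithelial barcodes, against 1.37, 0.109 and 1.94 in endothelial cells and 0.588, 0.111 and 0.591 in fibroblasts. It was higher than in endothelial cells within each library by a log2 fold change of 2.46 (SE 0.45, adjusted p = 0.00928), and than in fibroblasts by 3.65 (SE 0.37, adjusted p = 0.00109). The endothelial comparison was lost without the Foxn1Lin female library, adjusted p = 0.0781, and without the block, adjusted p = 0.0762.

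Downstream of the G protein, Plcb2 (chr2:118707517-118728438, minus strand) encodes the phospholipase C of taste cells, also found in leukocytes. Epithelial barcodes had 10.3, 2.84 and 7.38 CPM, endothelial barcodes 2.53, 0.436 and 2.47, and fibroblasts 0.653, 0 and 0.118. The log2 fold change was 1.59 (SE 0.33, adjusted p = 0.0139) over endothelial cells and 4.40 (SE 0.61, adjusted p = 0.00294) over fibroblasts. The endothelial comparison was lost without the Foxn1Lin female library (adjusted p = 0.0805) and without the block (adjusted p = 0.132). In barcodes with 2 or more UMIs of Ptprc (CD45) and none of the gate genes (76, 22 and 22 barcodes) Plcb2 reached 38.3, 35.1 and 8.61 CPM, from only 7, 2 and 1 UMIs. Trpm5 (chr7:143069153-143094642, minus strand) encodes the calcium-activated cation channel that depolarizes taste and tuft cells. Its epithelial level of 11.8, 6.09 and 16.3 CPM compared with 0.724, 0.436 and 3.27 in endothelial cells and 0.719, 1.78 and 1.24 in fibroblasts. The 3 epithelial values lay above all 6 others. Trpm5 overlaps Tssc4 on the other strand. Trpm5 was higher by 2.82 on the log2 scale (SE 0.40, adjusted p = 0.00394) and by 2.74 (SE 0.50, adjusted p = 0.00771); the fibroblast comparison had an adjusted p of 0.0527 without the wild type library.

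Il25 (chr14:54932695-54935837, plus strand) encodes the cytokine by which gut tuft cells activate type 2 lymphocytes. It had 37, 8 and 88 UMIs in epithelial barcodes, or 5.44, 1.08 and 4.36 CPM. Endothelial cells had 0.434, 0 and 0.177 CPM and fibroblasts 0.327, 0 and 0.0591, from between 0 and 6 UMIs per library. The log2 fold change was 3.78 (SE 0.61, adjusted p = 0.00597) over endothelial cells and 4.39 (SE 0.66, adjusted p = 0.00399) over fibroblasts. Alox5 (chr6:116410077-116461178, minus strand) encodes 5-lipoxygenase, which starts leukotriene synthesis. At 6.77, 5.81 and 16.7 CPM it exceeded endothelial cells (0.868, 0.654 and 3.62) and fibroblasts (0.392, 0.111 and 1.0) in each library, by 2.29 (SE 0.30, adjusted p = 0.00321) and 3.84 (SE 0.37, adjusted p = 0.000893) on the log2 scale. The endothelial comparison had an adjusted p of 0.0514 without the block.

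Ltc4s (chr11:50236461-50238616, minus strand) encodes leukotriene C4 synthase, which acts after ALOX5, yet its level had another distribution. Epithelial barcodes had 24.1, 14.6 and 26.2 CPM and endothelial cells 10.2, 14.4 and 14.6, whereas fibroblasts had 99.6, 189 and 295 CPM. Between 20.1% and 56.8% of fibroblast barcodes had a UMI, against 7.43% to 11.04% of epithelial barcodes. The log2 fold change of epithelial barcodes was -3.55 (SE 0.35, adjusted p = 0.000988) against fibroblasts and 0.31 (SE 0.27, adjusted p = 0.402) against endothelial cells. An antisense gene model, Gm26542, overlaps Ltc4s on the opposite strand.

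The remaining 3 genes serve cell structure and adhesion. Dclk1 (chr3:55242364-55539068, plus strand) encodes a microtubule-associated kinase that marks gut tuft cells. It was at 68.7, 92.8 and 175 CPM in epithelial barcodes, 60.6, 206 and 177 in endothelial cells and 450, 487 and 652 in fibroblasts. In fibroblasts 80.1%, 84.4% and 89.6% of barcodes had a Dclk1 UMI, so a single UMI did not set epithelial barcodes apart. The log2 fold change was -2.80 (SE 0.22, adjusted p = 0.000476) against fibroblasts and -0.73 (SE 0.29, adjusted p = 0.0949) against endothelial cells, where 1 library was higher and 2 were lower. Avil (chr10:127000709-127020994, plus strand) encodes advillin, an actin-bundling protein of sensory cells. Its epithelial levels of 27.2, 18.7 and 39.8 CPM were above those of endothelial cells (15.1, 15.3 and 18.4) and fibroblasts (17.0, 18.0 and 15.4) in every library, but the log2 differences of 0.36 (SE 0.22, adjusted p = 0.260) and 0.25 (SE 0.28, adjusted p = 0.502) did not pass. The gene overlaps Tsfm on the other strand. L1cam (chrX:73853778-73896105, minus strand) encodes an adhesion molecule of neurons and tuft cells. It was at 5.74, 4.87 and 7.73 CPM in epithelial barcodes, 13.8, 15.4 and 9.97 in endothelial cells and 1.31, 1.44 and 0.827 in fibroblasts, 3 ranges that did not overlap. L1cam was lower than in endothelial cells (log2 fold change -1.48, SE 0.33, adjusted p = 0.0171) and higher than in fibroblasts (1.92, SE 0.41, adjusted p = 0.0138). The former had an adjusted p of 0.0926 without the Foxn1Lin female and 0.0520 without the Foxn1Lin male library, and the latter 0.0618 without wild type. L1cam overlaps Arhgap4 on the same strand, where reads of both genes can be hard to tell apart.

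As background, droplets of at most 500 UMIs, which hold mainly RNA free in the suspension, had 6.80, 6.00 and 7.37 CPM of Gnat3, 3.99, 4.93 and 7.90 of Trpm5, 48.6, 72.5 and 102 of Ltc4s and 95.4, 143 and 205 of Dclk1. The epithelial level was above that of the droplets in all 3 libraries for Trpm5, Avil, Il25 and Alox5, in the Foxn1Lin female and wild type libraries for Gnat3, and in 1 library each for Gnb3 (Foxn1Lin female) and Plcb2 (wild type). For Dclk1, L1cam and Ltc4s it was below in all 3. Part of the signal outside the epithelial gate came from barcodes with several members. In the wild type endothelial gate Trpm5 went from 37 to 6 UMIs and Gnb3 from 22 to 1 UMIs when barcodes with 3 or more members were left out, whereas Gnat3 went from 26 to 11 UMIs. Since these barcodes were chosen by the members' own UMIs, leaving them out can only lower the UMIs of the other gates, and no test was drawn from it.

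The endothelial Gnat3 level (4.92, 2.18 and 2.29 CPM) was below that of the droplets (6.80, 6.00 and 7.37 CPM) in all 3 libraries. It was above that of fibroblasts (0.784, 0.333 and 0.236 CPM) in all 3, and whether it reflects expression was not tested. Among endothelial barcodes with under 3 members, Gnat3 was present in 3.0%, 2.03% and 1.26% of those with a Cd36 UMI (60 of 1999, 15 of 738 and 10 of 796). Of those without Cd36 it was present in 0.461% (1 of 217), 0 of 148 (which allows up to 2.03%) and 0.568% (1 of 176). The exact intervals with and without Cd36 overlapped in all 3 libraries, but few barcodes lacked Cd36 and the difference was not tested. Barcodes with Cd36 were deeper in Foxn1Lin female (a median of 4405 against 3279 UMIs) and Foxn1Lin male (7896 against 7329). In wild type they were shallower (7395 against 10738). The Gnat3 level was 5.23, 2.16 and 1.31 CPM with Cd36. Without Cd36 it was 0.693, 0 and 0.310 CPM, from 1, 0 and 1 UMIs. Cd36, a fatty acid transporter of capillary endothelium, lies on the opposite strand of chromosome 5, with its start 73.7 kb from that of Gnat3 and transcribed away from it. Whether these UMIs stem from Gnat3 transcripts was not tested.

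The sequence before the start site is shown for Trpm5 and Gnat3, the channel and gustducin genes, each with most of its epithelial UMIs in barcodes that held several other members, and for Avil, the only member with a match to the motif below. The sequences are those of RefSeq on GRCm38.p6, 250 bases that end at the base before the transcript start and read 5′ to 3′ on the gene's strand, as RefSeq places that start, at chr7:143094643-143094892 (minus), chr5:17962320-17962569 (plus) and chr10:127000459-127000708 (plus). For Gnat3 the RefSeq start lies inside the GENCODE gene model given above, so the last bases shown overlap that model. Capitals mark ATGCAAA or its reverse complement, most of the octamer ATGCAAAT bound by POU factors such as POU2F3, the master regulator of tuft cells.
Trpm5: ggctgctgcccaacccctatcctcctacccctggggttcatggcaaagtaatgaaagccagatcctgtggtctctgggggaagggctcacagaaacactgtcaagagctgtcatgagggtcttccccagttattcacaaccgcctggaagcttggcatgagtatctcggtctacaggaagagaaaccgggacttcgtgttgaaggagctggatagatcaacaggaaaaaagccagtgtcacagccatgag
Gnat3: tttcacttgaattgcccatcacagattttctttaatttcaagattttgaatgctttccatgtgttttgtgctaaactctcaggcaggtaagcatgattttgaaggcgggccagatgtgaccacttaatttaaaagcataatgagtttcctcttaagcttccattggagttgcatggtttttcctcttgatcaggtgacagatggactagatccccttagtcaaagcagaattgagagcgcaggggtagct
Avil: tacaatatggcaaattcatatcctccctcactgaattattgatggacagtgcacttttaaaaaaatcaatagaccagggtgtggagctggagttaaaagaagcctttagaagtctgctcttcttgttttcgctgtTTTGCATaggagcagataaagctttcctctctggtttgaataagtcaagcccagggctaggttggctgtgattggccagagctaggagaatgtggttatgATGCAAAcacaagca
Avil held 2 matches and Trpm5 and Gnat3 held 0. In all, 8 of the 10 genes had a promoter in the table, 10 promoters together. The letters ATGCAAA on either strand were in 1 of these, and in 4.63% of all 32851 promoters of the same length; this motif was chosen after the sequences were seen. The full octamer ATGCAAAT, which contains it, was in 0 of the 10 and 1.74% of all, the looser ATGNAAAT in 0 and 5.67%, and the TATA box TATAAA in 0 and 13.6%.

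Within the epithelial gate the shares of barcodes with a UMI were small for the signalling genes. Trpm5 was detected in 15, 12 and 59 barcodes (2.53%, 2.29% and 5.47%), Gnb3 in 16, 4 and 31 (2.69%, 0.762% and 2.88%), Plcb2 in 18, 6 and 32 (3.03%, 1.14% and 2.97%) and Gnat3 in 8, 2 and 18 (1.35%, 0.381% and 1.67%). Among the effectors Il25 was detected in 8, 3 and 26 barcodes (1.35%, 0.571% and 2.41%), Alox5 in 20, 24 and 91 (3.37%, 4.57% and 8.44%) and Ltc4s in 51, 39 and 119 (8.59%, 7.43% and 11.04%). Avil was found in 38, 63 and 125 barcodes (6.40%, 12.0% and 11.6%), L1cam in 31, 28 and 102 (5.22%, 5.33% and 9.46%), and Dclk1 in 135, 154 and 369 (22.7%, 29.3% and 34.2%). In endothelial cells and fibroblasts, which should lack Trpm5, its share ranged from 0.223% to 1.11%, with median depths of 4358 to 9461 UMIs against 8568.5 to 14159 in the epithelial gate. Gnat3 had a larger share of endothelial than of epithelial barcodes in both Foxn1Lin libraries (2.86% and 1.78% of endothelial barcodes), and L1cam in all 3 (7.73%, 13.0% and 10.4%). With each barcode thinned to 2000 UMIs both genes had the larger share in endothelial cells in all 3 libraries, at 1.29%, 0.576% and 0.738% against 0.769%, 0.418% and 0.498% for Gnat3 and 3.67%, 3.11% and 2.11% against 1.54%, 1.05% and 1.39% for L1cam. Fibroblasts had the larger share of Dclk1 and Ltc4s in all 3 libraries, thinned or not.

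Depth differed between libraries, so barcodes were thinned to 2000 UMIs each, leaving out the shallower ones (520, 478 and 1004 epithelial barcodes remained). The Trpm5 share then was 1.73%, 1.46% and 2.79%, that of Alox5 1.15%, 0.837% and 2.89%, and that of L1cam 1.54%, 1.05% and 1.39%. The wild type library, with the deepest barcodes, remained highest for Trpm5 and Alox5 but not for L1cam. Gnb3 stayed lowest in the Foxn1Lin male library, with 1.35%, 0.209% and 0.797%.

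The members were found together in a small set of barcodes. Of the epithelial barcodes 381, 291 and 545 had no member and 166, 177 and 356 had exactly 1. Barcodes with 3 or more of the 10 numbered 16, 16 and 74, which is 2.69% (95% exact binomial interval 1.55 to 4.34), 3.05% (1.75 to 4.90) and 6.86% (5.43 to 8.54). After thinning the shares were 2.12% (11 of 520), 1.46% (7 of 478) and 3.29% (33 of 1004). These intervals cover counting error only. The distribution had a tail that reached all 10 members, in 2 barcodes of the Foxn1Lin female and 8 of the wild type library, while the Foxn1Lin male library reached 8 members in 3 barcodes. Barcodes with 3 or more members had a median of 10021, 14562 and 18356 UMIs, against 7027, 7783 and 11879 in those with none.

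**Figure D2:**
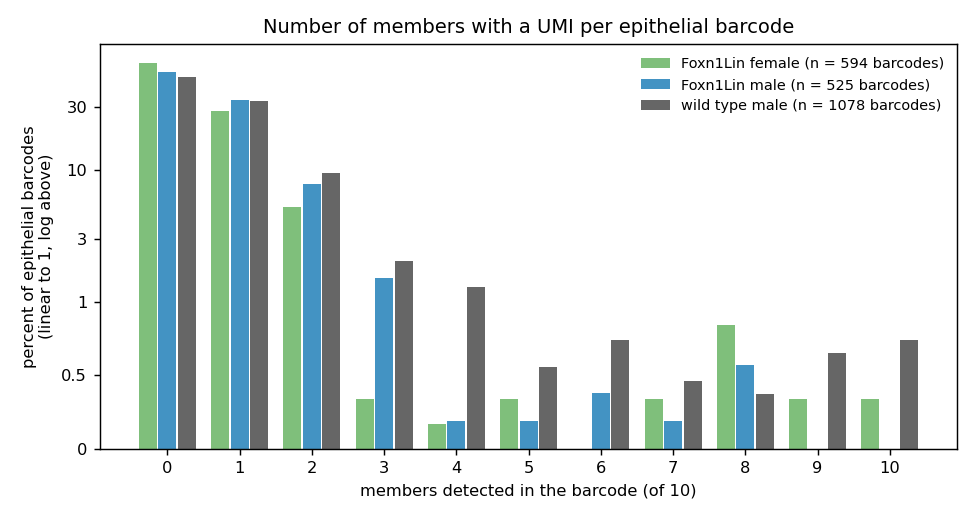
Percent of epithelial barcodes (vertical axis, linear to 1 and logarithmic above) by how many of the 10 genes had a UMI in the barcode, with 1 bar per library (594, 525 and 1078 barcodes). Most barcodes held 0 or 1 members, and the bars of the Foxn1Lin female and wild type libraries extend to 10.

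Barcodes with 3 or 4 members differed from those with 5 or more in the members they held. In the former (3, 9 and 36 barcodes) Dclk1 was present in 3, 9 and 31 and Avil in 2, 7 and 20, but Trpm5 in only 1, 1 and 15, and Gnat3 and Il25 in 0 of any library. A limit of 5 members, added after the data were seen, left 13, 7 and 38 barcodes (2.19%, 1.33% and 3.53%), and in these Trpm5 was present in 12, 7 and 37, Avil in 13, 7 and 36 and Alox5 in 11, 4 and 38. Members chose these barcodes, so these counts are a description. Plcb2 was present in 12, 5 and 26 of them, Gnb3 in 9, 4 and 21, Il25 in 8, 3 and 21 and Gnat3 in 6, 2 and 17. Gnat3 had uneven counts, with a median of 0 UMIs in each library and a highest barcode of 64, 4 and 110 UMIs. Dclk1 had medians of 6, 20 and 16.5 UMIs and highest values of 54, 36 and 241. L1cam stayed low wherever it was seen, at no more than 7 UMIs per barcode.

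**Figure D3:**
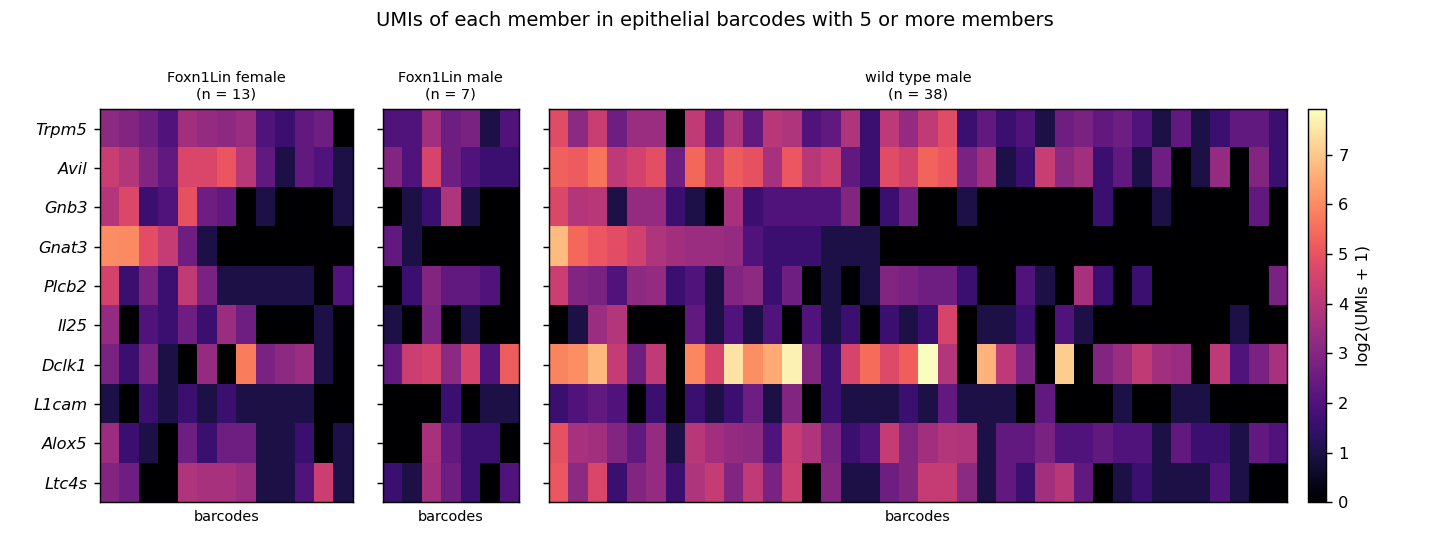
UMIs of each of the 10 genes (rows, colour as log2 of UMIs plus 1) in every epithelial barcode with 5 or more members (columns), for 13, 7 and 38 barcodes of the 3 libraries. Trpm5 and Avil fill nearly every column, whereas Gnat3 is at 0 in many columns and has its highest value, 110 UMIs, in 1 wild type barcode.

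Pou2f3, a marker of these cells that took no part in the choice of barcodes, was present in 12 of 16, 7 of 16 and 47 of 74 barcodes with 3 or more members and in 45 of 381, 15 of 291 and 52 of 545 with none. With 5 or more members it was present in 12 of 13, 4 of 7 and 32 of 38. The summed level of 8 markers of thymic epithelium was 7802, 7397 and 5824 CPM in barcodes with 5 or more members and 6959, 6453 and 5579 CPM in those with none. Cortical markers (5 genes) were at 278, 130 and 180 CPM against 3708, 418 and 1913 CPM. Of the 10 hematopoietic markers 4, 7 and 2 were at 0 and the sum was 1175, 519 and 375 CPM, against 813, 591 and 605 CPM in barcodes with no member. Of the 7 mast cell and basophil markers 5, 6 and 5 were at 0, with sums of 234, 303 and 269 CPM against 187, 152 and 177 CPM. Of the 6 macrophage markers 4, 5 and 5 were at 0, with sums of 88.4, 21.6 and 65.3 CPM against 177, 169 and 135 CPM. With 3 or more members, the set used for the list of other tuft genes, the hematopoietic sum was 977, 632 and 620 CPM (3, 1 and 0 genes at 0) and the macrophage sum 194, 181 and 214 CPM (4, 5 and 0 at 0), above those with none in each library. The mast cell and basophil sum was 194, 198 and 155 CPM (5, 5 and 3 at 0), above in both Foxn1Lin libraries and below in wild type. Cortical markers there were at 1001, 381 and 302 CPM, which in Foxn1Lin male is close to the 418 CPM with none. The part of leukocyte RNA in the levels of Plcb2, Alox5 and Ltc4s and of the listed genes was not tested. Ptprc was detected in 0, 0 and 7 of the barcodes with 5 or more members. Doublet scores marked 1, 5 and 7 of the barcodes with 3 or more members, and with marked barcodes removed every member's share of epithelial barcodes moved by less than its counting interval.

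Members were then compared within the epithelial gate by the other 9, so that no gene chose its own barcodes. In barcodes with 3 or more of the other 9, Trpm5 was at 387, 78.7 and 192 CPM, against 0.269, 0.300 and 0.360 CPM where none of the other 9 was detected, a ratio of 1439, 262 and 534. These ratios rest on 1, 1 and 3 UMIs in the latter barcodes, with counting intervals of 251 to 57590, 43.8 to 10665 and 181 to 2602. Gnat3 was at 844, 12.2 and 181 CPM against 0 in each library, at least 1045-fold, 13.4-fold and 502-fold higher, with 3 UMIs per library taken as the floor. Il25 was at 175, 19.5 and 48.5 CPM against 0, 0 and 0.240 CPM. These 3 genes had 93.8%, 71.1% and 96.0% (Trpm5), 98.9%, 100% and 99.7% (Gnat3) and 100%, 100% and 90.9% (Il25) of their epithelial UMIs in barcodes with 3 or more of the others. For Gnb3 this share was 90.4%, 100% and 89.3%, and for Plcb2 92.9%, 95.2% and 98.0%. Alox5 had 76.1%, 48.8% and 82.5% and Avil 82.7%, 32.6% and 80.6%, both lowest in the Foxn1Lin male library.

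Dclk1, L1cam and Ltc4s had a smaller part of their epithelial UMIs in these barcodes. The share was 23.6%, 17.6% and 49.0% for Dclk1, 33.3%, 19.4% and 39.7% for L1cam and 52.4%, 27.8% and 65.2% for Ltc4s. Their levels nevertheless differed with the other 9. Dclk1 was at 687, 860 and 1789 CPM against 57.8, 68.2 and 85.5 CPM, a ratio of 11.9, 12.6 and 20.9. For L1cam the ratio was 16.8, 6.64 and 12.7, for Ltc4s 47.2, 7.83 and 22.3, for Alox5 126, 39.3 and 59.9, and for Avil 162, 13.4 and 58.5. In barcodes with 3 or more of the others Dclk1 thus exceeded its fibroblast level (450, 487 and 652 CPM) in all 3 libraries and Ltc4s (408, 110 and 282 CPM) in 1 of 3.

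**Figure D4:**
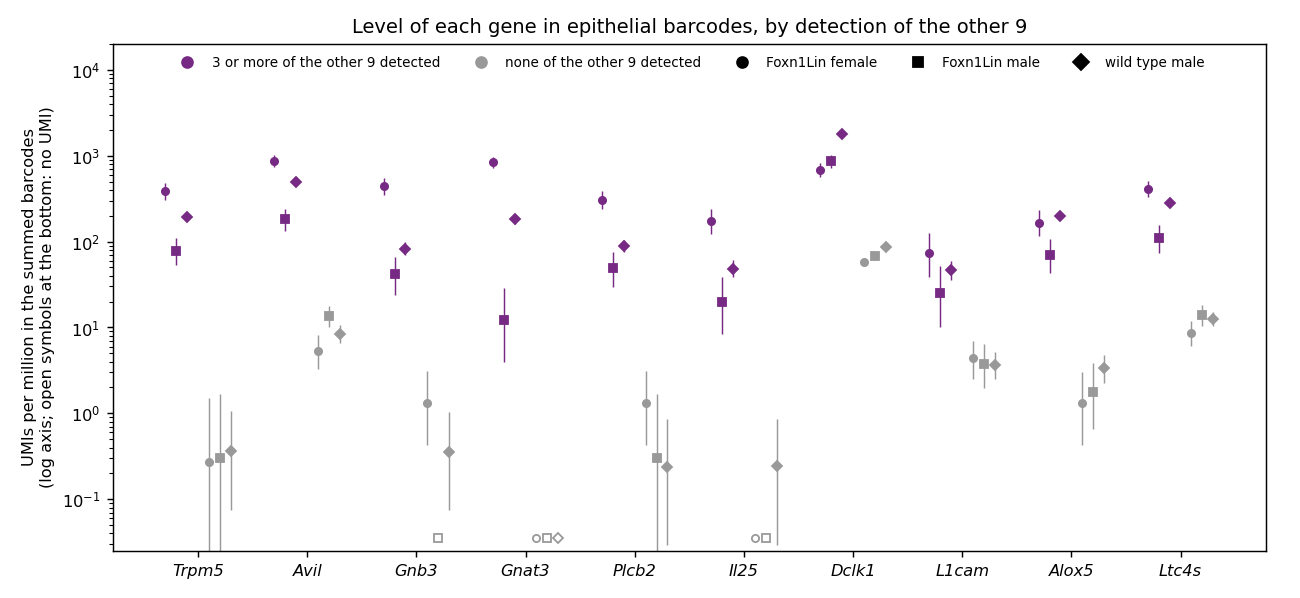
Level of each gene (CPM, log axis) in epithelial barcodes with 3 or more of the other 9 genes and in those with none of them, 1 symbol per library, with open symbols at the bottom where no UMI was counted. For every gene the first set lies above the second in each library, with the lowest ratio, 6.64, for L1cam in Foxn1Lin male.

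Members were also counted in pairs. All 8 and all 3 Il25 barcodes of the Foxn1Lin libraries and 21 of 26 in wild type also had Trpm5, against 1.19%, 1.72% and 3.61% of barcodes without Il25. Avil was found with Il25 in 8 of 8, 3 of 3 and 20 of 26. Of the Trpm5 barcodes 11 of 15, 5 of 12 and 28 of 59 had Plcb2, against 1.21%, 0.195% and 0.393% of those without Trpm5, and 9 of 15, 4 of 12 and 23 of 59 had Gnb3, against 1.21%, 0 and 0.785%. Avil was in 13 of 15, 8 of 12 and 43 of 59 Trpm5 barcodes, against 4.32%, 10.7% and 8.05% of the others. Dclk1 was in 11 of 15, 11 of 12 and 46 of 59 Trpm5 barcodes, against 21.4%, 27.9% and 31.7% of those without. Alox5 was in 10, 4 and 42 of the Trpm5 barcodes, against 1.73%, 3.90% and 4.81% of those without. Ltc4s was in 10, 6 and 42, against 7.08%, 6.43% and 7.56%. Read the other way, 11 of 18, 5 of 6 and 28 of 32 Plcb2 barcodes and 9 of 16, 4 of 4 and 23 of 31 Gnb3 barcodes had Trpm5. Most Trpm5 barcodes of the Foxn1Lin male and wild type libraries had no UMI of Plcb2, nor of Gnb3.

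Aire, the regulator by which medullary epithelium expresses tissue-restricted genes, was detected in epithelial barcodes with and without the members. With 3 or more members, 2 of 16 (12.5%, interval 1.55 to 38.3), 5 of 16 (31.3%, 11.02 to 58.7) and 15 of 74 barcodes (20.3%, 11.8 to 31.2) had an Aire UMI. With no member the counts were 105 of 381 (27.6%), 61 of 291 (21.0%) and 148 of 545 (27.2%), all within those intervals. The Aire level was 166, 295 and 66.1 CPM with 3 or more members and 234, 167 and 208 CPM with none, so that the Foxn1Lin male library went the other way from the rest. With 5 or more members Aire was in 1 of 13, 1 of 7 and 8 of 38, at 6.32, 21.6 and 89.0 CPM. The background of Aire was 69.8, 75.1 and 191 CPM in droplets of at most 500 UMIs, 22.4, 10.6 and 36.2 CPM in endothelial cells and 7.64, 6.66 and 12.7 CPM in fibroblasts. With 5 or more members the level was thus below that of the droplets in all 3 libraries. The Foxn1Lin libraries had 1 Aire UMI each there, which is not read as Aire expression. Wild type had 60 Aire UMIs in 8 barcodes, at a level above that of endothelial cells and fibroblasts. Whether these reflect Aire expression was not tested. After thinning, Aire was detected in 0 of 11, 0 of 7 and 2 of 33 barcodes with 3 or more members, and in 17.6%, 12.8% and 16.7% of those with none. A count of 0 of 11 allows a share of up to 27.3% and 0 of 7 one of up to 42.9%, and the wild type interval runs from 0.743 to 20.2%, so at this depth a difference was not detectable. By single members, Ltc4s barcodes had Aire in 15 of 51 (29.4%), 25 of 39 (64.1%) and 54 of 119 (45.4%), and barcodes without Ltc4s in 26.5%, 17.7% and 25.8%. After thinning these shares were 2 of 18 (11.1%), 2 of 14 (14.3%) and 8 of 39 (20.5%, interval 9.30 to 36.5) with Ltc4s and 16.9%, 11.2% and 14.9% without, so at equal UMIs no difference was detectable for Ltc4s. Dclk1 barcodes had Aire less often in each library, in 21.5%, 16.9% and 23.3%, against 28.3%, 22.9% and 30.3% of barcodes without Dclk1. After thinning the shares with Dclk1 were 5 of 59 (8.47%, interval 2.81 to 18.7), 0 of 58 (which allows up to 5.17%) and 9 of 151 (5.96%, 2.76 to 11.01), against 17.8%, 12.9% and 16.8% without, which lie above the limit or interval in the Foxn1Lin male and wild type libraries. These limits cover counting error only, and the difference was not tested across libraries. For each of the other 8 members the thinned share of barcodes without the gene lay within the interval, or under the limit of a count of 0, of those with it in all 3 libraries. Il25 barcodes had Aire in 1 of 8 (interval 0.316 to 52.7), 1 of 3 (0.840 to 90.6) and 6 of 26 (8.97 to 43.6).

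The reporter, counted as the tdTomato-WPRE transgene, was detected in 12 of 16 (75.0%, interval 47.6 to 92.7) and 16 of 16 (79.4 to 100) barcodes with 3 or more members in the Foxn1Lin libraries. In barcodes with no member it was in 274 of 381 (71.9%) and 241 of 291 (82.8%). Both of these shares lie within the intervals of the former. After thinning the shares were 54.5% of 11 and 57.1% of 7 barcodes with 3 or more members, against 56.5% and 72.9% with none. Endothelial cells had the reporter in 23.8% and 33.0% and fibroblasts in 16.3% and 14.1% of barcodes, which after thinning were 11.3%, 12.3%, 5.00% and 4.65%. In wild type, which has no reporter, it was in 0 of 74 barcodes with 3 or more members, which allows a share of up to 4.05%.

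Beyond the 10 members, a list of other taste and tuft genes was compared between epithelial barcodes with 3 or more members and those with none, in the same test. Of 63 listed genes in the files 56 were tested, and 31 were higher and 0 lower (0 also at an unadjusted p under 0.05, and by DESeq2, which called 34 higher). Over all 18956 genes tested that are no members, 1.11% were higher and 0.681% were lower. The median log2 fold change of the list was 2.65, beside -0.18 over all genes tested. The members only chose the barcodes and were not tested. Barcodes with 3 or more members were also deeper, as given above.

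Of the signal transduction genes 11 of 14 tested were higher. Rgs13, a regulator that shortens G protein signals, was at 835, 92.8 and 573 CPM against 0.539, 0 and 0.602 CPM, a log2 fold change of 10.04 (SE 0.38, adjusted p = 4.5e-07). Bmx, a kinase of the Tec family, was at 1205, 149 and 521 CPM against 2.42, 0.303 and 0.482 (9.23, SE 0.36, adjusted p = 4.5e-07). Lrmp, a membrane protein of the endoplasmic reticulum, followed with 7.84 (SE 0.46, adjusted p = 6.3e-06) and Vav1, an exchange factor best known from leukocytes, with 6.06 (SE 0.41, adjusted p = 1.5e-05). Gng13, the gamma subunit that pairs with gustducin in taste cells, was at 1295, 288 and 717 CPM against 22.6, 18.8 and 14.7 CPM (5.06, SE 0.40, adjusted p = 5.6e-05). Each of these was higher in 3 of 3 libraries.

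Among the 11 eicosanoid and effector genes 4 were higher. Alox5ap, which presents arachidonate to ALOX5, was at 256, 115 and 251 CPM against 0, 0 and 0.361 CPM (9.88, SE 0.49, adjusted p = 3.0e-06). The others were Chat, the enzyme of acetylcholine synthesis (6.10, adjusted p = 0.00309), Ptgs1, a cyclooxygenase (4.68, adjusted p = 0.00498), and Hpgds, a prostaglandin D synthase (3.16, adjusted p = 6.6e-04). Of the genes of structure and other functions 13 of 20 were higher, led by the adaptors Sh2d6 (7.06, SE 0.40, adjusted p = 6.3e-06) and Sh2d7 (6.58, SE 0.39, adjusted p = 7.1e-06) and by Ly6g6f, a surface protein (8.64, SE 0.54, adjusted p = 1.0e-05). Of the 6 transcription factors tested only Pou2f3 passed, at 251, 87.9 and 229 CPM against 22.4, 5.77 and 11.9 CPM (3.80, SE 0.29, adjusted p = 4.3e-05).

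**Figure D5:**
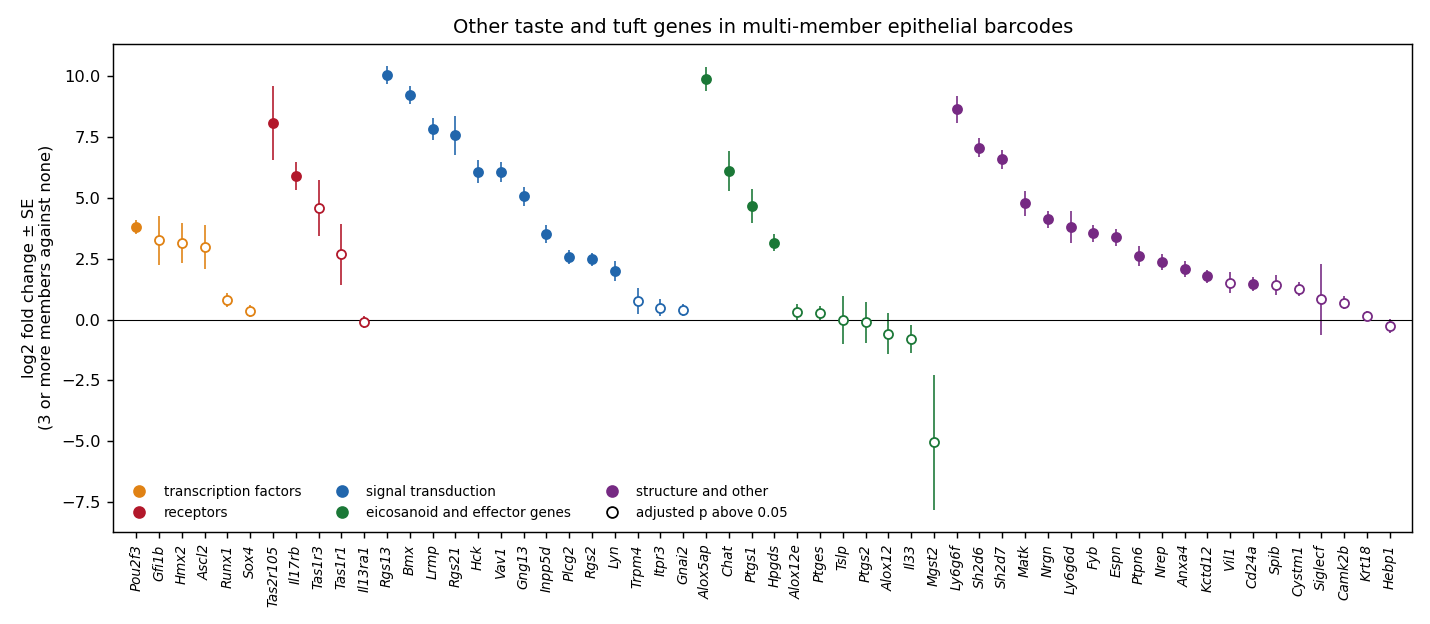
Log2 fold change with its SE of the other taste and tuft genes tested, epithelial barcodes with 3 or more members against those with none, coloured by role, with open symbols where the adjusted p was above 0.05. Rgs13 is highest at 10.04, and no filled symbol lies below 0.

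Of the 12 receptor genes in the files 5 were tested and 2 were higher, Il17rb, a subunit of the receptor for interleukin 25 (5.91, SE 0.58, adjusted p = 3.3e-04), and the bitter receptor Tas2r105. Tas2r105 had 9, 0 and 10 UMIs, in 2, 0 and 5 barcodes, and 0 in barcodes with no member. That is at least 52.8-fold higher in Foxn1Lin female and 16.8-fold in wild type, with 3 UMIs per library taken as the floor. Its adjusted p of 0.0342 became 0.161 without the block, 0.296 without the Foxn1Lin female library, 0.0556 with Epcam of 2 or more and 0.216 with 2 or more members. Tas1r3, the subunit shared by sweet and umami receptors, had 4, 3 and 9 UMIs against 0, 1 and 4 (4.59, SE 1.16, adjusted p = 0.0891). It passed with marked doublets removed (adjusted p = 0.0207), with 4 or more members (0.00416) and without the Foxn1Lin male library (0.00996). The umami subunit Tas1r1 had 5, 0 and 12 UMIs against 2, 0 and 27 (2.69, SE 1.24, adjusted p = 0.468). The other taste receptors were too sparse to test. Tas2r108 had 1, 0 and 4 UMIs against 0, and the sweet subunit Tas1r2 had 0 against 0, 0 and 4. Tas2r143 had 0 against 1, 0 and 2, while Tas2r118 and Tas2r131 had none in either set.

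Over all genes, those whose detection was most like having 3 or more members were ranked by phi, the correlation over epithelial barcodes between a UMI of the gene and 3 or more members, taking the lowest of the 3 libraries. Sh2d7 came first at 0.61, followed by Il17rb (0.44), Lrmp (0.42), Pik3r5 (0.41), Itprid1 (0.38), St18 (0.38), Vav1 (0.36), Atp2a3 (0.35) and Sh2d6 (0.34). Of these, 5 are in the list above. The points are barcodes of 1 library each, which differ in depth, and phi is given as a description.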

How the data were processed

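The matrices the authors deposited hold UMI counts as whole numbers for each barcode and gene, made with Cell Ranger 7.0.1 on a GRCm38 reference with the reporter sequence added; reads in introns were counted. These counts were used as deposited. Gates were set on Epcam, Pecam1 and Pdgfra, and doublets were scored with scanpy 1.11.5, marking the highest 3.9% of scores with ties (361, 148 and 218 barcodes). Counts were summed per library and gate and tested with edgeR 4.0.16 in R 4.3.3 (quasi-likelihood test, TMM, library as block, genes with 10 or more UMIs over the sums, Benjamini-Hochberg adjustment, adjusted p of 0.05), with DESeq2 1.42.0 as an alternative. Because both gates of a library come from the same pooled thymi, the library pairs the sums, and p-values measure the spread between 3 libraries of different genotype and sex. On simulated counts the test recovered 89% (epithelial against endothelial), 94% (against fibroblasts) and 85.5% (several members against none) of 200 genes changed 4-fold. Shares have exact binomial intervals, and a count of 0 a floor of 3 counts.

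All 10 members are named, and of the list of other taste and tuft genes the first 10 called by adjusted p, the taste receptors and Pou2f3; other called genes were named after their values were seen. Genes ranked by phi were no members and had a UMI in at least 10 epithelial barcodes of each library. Of the first 10, 1 is not reported here. The members and all lists were chosen with earlier results of these data known. Gene positions are those of GENCODE vM21.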

Additional observations from a re-analysis of the deposited data

Results flagged for a closer look

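Gnat3 moved in opposite directions between libraries when the epithelial gate was set against the endothelial gate. The ratio of CPM was 5.38 in Foxn1Lin female and 6.48 in wild type male, but 0.310 in Foxn1Lin male, where 5 epithelial UMIs in 2 barcodes stood against 20 endothelial UMIs. The endothelial level was below that of droplets of at most 500 UMIs in all 3 libraries, as was the epithelial level in Foxn1Lin male. For Dclk1 the same ratio was 1.13, 0.450 and 0.988, above 1 in the Foxn1Lin female library only. The share of barcodes with an Aire UMI was 15.1 percentage points lower with 3 or more members than with none in Foxn1Lin female (a difference of -15.1), 10.3 points higher in the Foxn1Lin male library and lower in wild type male (-6.89). In Foxn1Lin male 5 of the 16 barcodes with 3 or more members were marked as doublets. The share there was above that with no member (21.0%) with 4 or more members (2 of 8, 25.0%). It was below with 5 or more members (1 of 7, 14.3%, interval 0.361 to 57.9) and on thinning (0 of 7 against 12.8%). Counts this small do not set a direction. With 1 library per group these differences between libraries were not tested.

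Barcodes with 5 or more members were also found outside the epithelial gate, numbering 8 (Foxn1Lin female), 4 (Foxn1Lin male) and 22 (wild type male) of 21, 11 and 60 such barcodes in all. Of these, 7, 1 and 19 had an Epcam UMI but also Pecam1 or Pdgfra UMIs. Pecam1 was at 2 or more UMIs in 5, 1 and 6 of them and Pdgfra in 2, 0 and 5. Doublet scores marked 1, 0 and 5. With barcodes of 3 or more members left out of the fibroblast gate, Trpm5 went from 11, 16 and 21 UMIs to 6, 16 and 0.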

How the results depend on the processing

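Of the recomputed fold changes 415 kept their direction and their side of the threshold, 10 passed newly (Tas1r3 among them), 13 no longer passed and 1 reversed, that of Avil against fibroblasts, which ranged from -0.034 (without the wild type library, adjusted p = 0.926) to 0.58 when each library was left out. Of the 415, 20 left barcodes with 3 or more members out of the other gates, a choice made on the members' own UMIs that says nothing about stability. Members higher against endothelial cells numbered 2 (Il25 and Trpm5) without the replicate block and 3 to 6 when each library was left out; members lower numbered 0 to 1 when each library was left out, and 2, with Dclk1 joining, both with Ptprc of 0 and with Epcam of 0 in the other gates. The block moved neither count against fibroblasts. Of the listed genes between 21 (2 or more members) and 41 (5 or more members) were higher, 22 without the block; 0 to 1 were lower when each library was left out, and 2, Il33 and Ptgs2, with 5 or more members. The share of all genes called was computed for the main setting only. Whether the members and the list moved apart from all genes under the other settings was therefore not tested. The share of epithelial barcodes with any member fell to 16.0%, 18.2% and 20.1% on thinning. With 2 or more members the share was 7.91%, 10.9% and 16.4%, with 4 or more 1.52% in Foxn1Lin male and 4.82% in wild type, with 5 or more 1.33% and 3.53%, and on thinning 1.46% and 3.29%. The Aire share of barcodes with 3 or more members became 0, 0 and 6.06% on thinning, and the reporter share in Foxn1Lin male 57.1%. Why these values moved was not tested. Each group had 1 library, and the Foxn1Lin male library had as few as 5 epithelial UMIs of a member (Gnat3), so its values for that gene are imprecise.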

Other observations

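Among the barcodes with 5 or more members, those with and without Gnat3 differed in their levels of other members; these values were looked at after the data were seen and have no test. Gnb3 was present in 6 of 6, 1 of 2 and 15 of 17 barcodes with Gnat3, and in 3 of 7, 3 of 5 and 6 of 21 without. Its level was 831, 170 and 284 CPM with Gnat3 and 94.97, 396 and 51.8 CPM without. Plcb2 was at 578, 341 and 216 CPM against 127, 446 and 176 CPM. Trpm5 was at 452, 1022 and 435 CPM against 506, 644 and 421 CPM. Gnb3 and Plcb2 were thus higher with Gnat3 in the Foxn1Lin female and wild type libraries and lower in the Foxn1Lin male library, which had only 2 barcodes with Gnat3. The median depth was 15038, 2934.5 and 20884 UMIs with Gnat3 and 7792, 5334 and 7011 UMIs without.

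Other epithelial programmes were also read in the barcodes with 5 or more members. Neuroendocrine markers (6 genes) were at 63.2, 21.6 and 31.2 CPM, against 1532, 1492 and 1070 CPM in barcodes with no member. Markers of M cells (5 genes) were at 398, 454 and 494 CPM against 183, 310 and 394 CPM. The mTEC1 list (5 genes) was at 411, 411 and 1117 CPM against 1493, 2300 and 2000 CPM, and the mTEC2 list (4 genes, Aire among them) at 998, 1038 and 559 CPM against 1654, 1347 and 1755 CPM. Fibroblast markers (7 genes) were at 101.1, 64.9 and 53.4 CPM against 851, 293 and 293 CPM, endothelial markers (8 genes) at 139, 64.9 and 31.2 CPM against 138, 29.7 and 46.2 CPM, and Schwann cell markers (6 genes) at 19.0, 108 and 17.8 CPM against 18.3, 25.2 and 28.5 CPM. The tuft list, 5 of whose 6 genes are members, was at 3039, 5104 and 4487 CPM. Some of these directions turned with 3 or more members, where the mTEC1 list was at 503, 1243 and 2170 CPM, the mTEC2 list at 1304, 1628 and 746 CPM and M cell markers at 356, 154 and 707 CPM. Compared with barcodes of no member, mTEC1 was then higher in wild type, mTEC2 higher in Foxn1Lin male and M cell markers lower in Foxn1Lin male.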
